A study of Mus musculus with 9 samples.

Results

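The collagen and laminin genes were taken by symbol, as every gene whose symbol is Col or Lam (a, b or c) followed by chain numbers. This rule found 55 genes, 44 for collagen chains and 11 for laminin chains, among the 31053 genes listed. No measured value entered this rule, but the family was chosen with earlier results of these data known. RNA molecules were counted as unique molecular identifiers (UMIs) in nuclei of pooled cortex and hippocampus from 9 male C57BL/6 wild-type mice, with 1 library per mouse and 3 mice per group. All mice received an adeno-associated virus (AAV) with the PHP.V1 capsid into the retro-orbital sinus 8 weeks before the tissue was taken, and a shortened CLDN5 promoter was used to restrict its cargo to endothelial cells. The young AAV-EGFP group (5 months old) and the aged AAV-EGFP group (19 months old) received a virus for the green fluorescent protein EGFP alone. The aged AAV-B3GNT3 group (19 months old) received a virus for EGFP and B3GNT3, which lengthens the O-linked sugar chains of mucin-type glycoproteins. The comparison of aged with young AAV-EGFP mice is called ageing below, that of aged AAV-B3GNT3 with aged AAV-EGFP mice is called treatment, and both use the same 3 aged AAV-EGFP libraries. Per the paper, aged mice came from the National Institute on Aging and young mice from Jackson Laboratories, so age and supplier cannot be told apart in ageing.

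Collagens are proteins of 3 chains wound into a triple helix. Fibrillar collagens form the fibres of connective tissue, type IV collagen forms the sheet of basement membranes, and other collagens decorate fibrils, form short filaments or stay anchored in the plasma membrane. Laminins are heterotrimers of an alpha, a beta and a gamma chain that lay down basement membranes together with type IV collagen, nidogen and perlecan. In the brain a basement membrane wraps every vessel between endothelial cells, pericytes and the endfeet of astrocytes, and fibroblasts of the meninges and of larger vessels make most of the fibrillar collagen.

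The 9 libraries held 47332047 to 79964605 UMIs each, and 70351 of 77823 nuclei were kept, with 5770 to 9279 per library and a median of 2967 to 5270 UMIs per nucleus. Any 2 libraries of a group differed by more than counting noise. Of the barcodes, 734 occurred in more than 1 library, and since barcodes are drawn from a fixed set these were kept as separate nuclei. Clusters were named from marker genes that hold no collagen or laminin, and each class named below means nuclei like that cell type. The inhibitory neuron class joined a cluster of 4440 nuclei with one of 3718 nuclei led by Drd2 and Rgs9, markers of striatal neurons. A further 5560 kept nuclei had no class name, among them the 1202 dentate granule neurons described below. In the endothelial class, Cldn5 was at 589 CPM (UMIs per 1000000 UMIs) against 4.74 in fibroblasts. Mouse B3gnt3 had 5 to 17 UMIs per library over all barcodes and all groups, and whether RNA from the virus is counted there was not determined. The share of UMIs from RNA of other cells, estimated from markers of other classes, was 22.0 to 27.0% in young AAV-EGFP pericytes, 7.93 to 11.4% in aged AAV-EGFP and 15.7 to 18.9% in aged AAV-B3GNT3. In astrocytes the same shares were 18.9 to 22.6%, 8.43 to 10.1% and 14.4 to 17.2%, and in excitatory neurons 7.34 to 9.05%, 5.19 to 8.34% and 6.30 to 8.29%. In microglia they were 33.6 to 52.4%, 10.1 to 39.1% and 23.7 to 28.9%, and in endothelial cells they were 19.4 to 32.5%, 8.01 to 27.1% and 15.4 to 30.5%. Vascular nuclei of aged AAV-EGFP mice stood further from each other than those of the other groups, so that 10.9 to 21.5% of genes in pericytes differed over 2-fold from the mean of the other 2 libraries, against 3.04 to 4.42% in the other groups. In pericytes, 207 of the 224 nuclei of a separate cluster, called pericyte cluster 2, came from aged AAV-EGFP replicates 2 and 3.

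Collagen and laminin RNA was spread over all 10 named classes, and which gene was present set the classes apart. Fibroblasts had the highest level of 19 of the 55 genes, choroid plexus epithelial cells of 8, endothelial cells and pericytes of 6 each, inhibitory neurons of 4, astrocytes and oligodendrocyte precursors of 3 each, and oligodendrocytes, microglia and excitatory neurons of 2 each. Levels are UMIs per 1000000 UMIs of a class over the 9 libraries. They are to be compared between classes for 1 gene, since how well transcripts of different genes are captured was not measured. Counted as molecules instead, 26 of the 55 genes had more UMIs in excitatory neurons, a numerous and deeply covered class, than in any other class. Collagen UMIs together made up 3813 CPM in fibroblasts, 3375 in choroid plexus cells, 1490 in pericytes and 221 in oligodendrocytes. Laminin UMIs together made up 3084 CPM in pericytes, 2574 in fibroblasts, 1206 in astrocytes and 125 in microglia. The map of levels by class shows these patterns gene by gene.

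**Figure D1:**
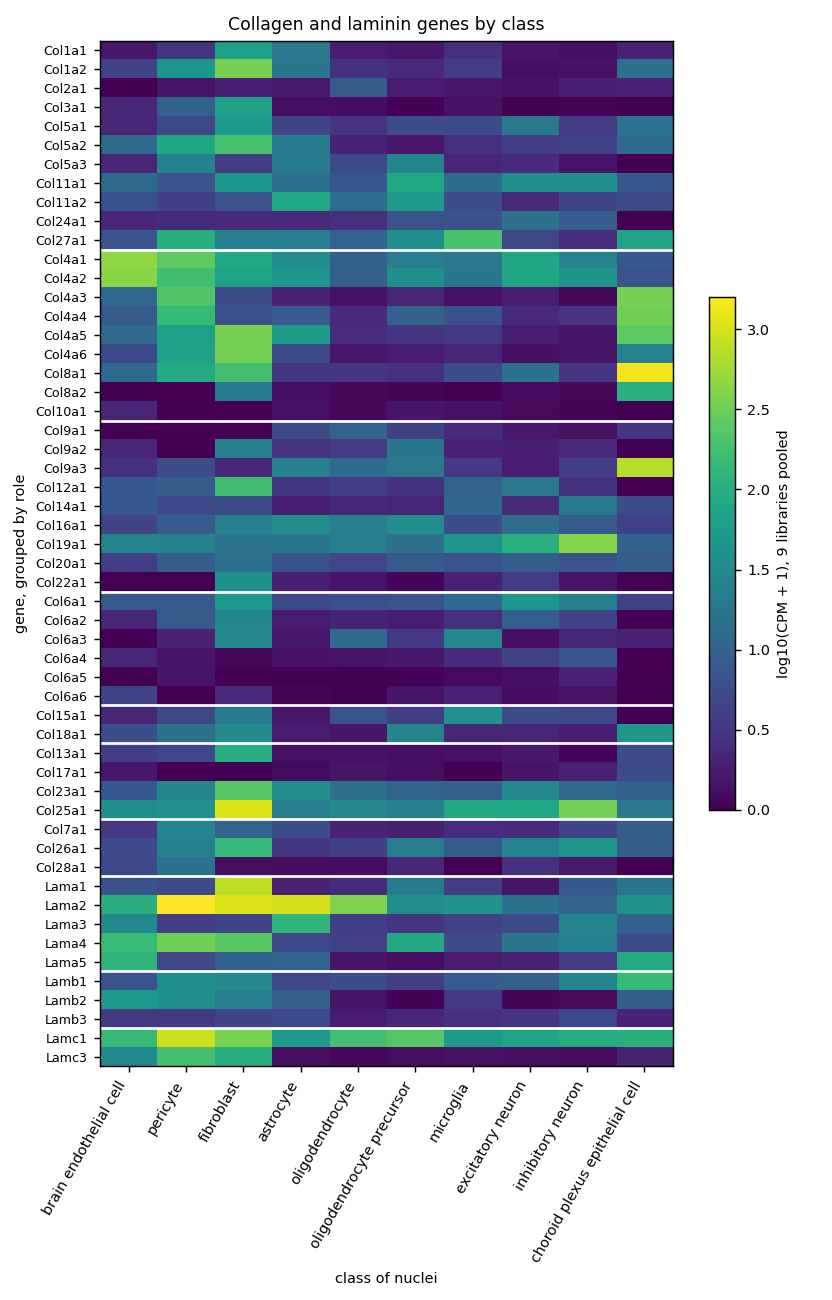
Level of 54 collagen and laminin genes (rows, grouped by role, with white lines between roles) in 10 classes of nuclei (columns). Colour is log10(CPM + 1) of the UMIs pooled over 9 libraries, to be read along a row and not between rows. Fibroblasts hold the highest value in 19 rows.

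The type IV collagen genes lie in 3 pairs, each read outwards from a shared start region, and the chains of a pair assemble together. Col4a1 and Col4a2 encode the chains of the common vascular basement membrane. Their annotated starts are 21 bases apart on chromosome 8 (Col4a1 at chr8:11198423-11312826 on the minus strand, Col4a2 at chr8:11312805-11449287 on the plus strand, both GRCm38). The start regions of this pair are shown because both genes were called in pericytes. No entry was matched for Col4a3, of the other pair called there. The sequences of Col4a1 and Col4a2 are RefSeq sequences of GRCm38.p6 from 250 bases before to 50 bases after the annotated RefSeq start, 5′ to 3′ on the gene's own strand. Capitals mark matches on either strand to 3 motifs. The GC box is GGGCGG. The CTC box, known from this promoter, is CCCCTCCCC. The last is the CCAAT box, spelled as its name.
Col4a1, chr8:11312777-11313076, minus strand: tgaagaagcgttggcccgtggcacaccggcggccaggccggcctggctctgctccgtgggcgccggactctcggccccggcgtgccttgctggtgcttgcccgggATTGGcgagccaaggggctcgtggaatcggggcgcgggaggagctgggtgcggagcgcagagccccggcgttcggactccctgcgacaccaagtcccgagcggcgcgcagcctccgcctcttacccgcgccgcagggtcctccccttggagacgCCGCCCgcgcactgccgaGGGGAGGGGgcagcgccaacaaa
Col4a2, chr8:11312555-11312854, plus strand: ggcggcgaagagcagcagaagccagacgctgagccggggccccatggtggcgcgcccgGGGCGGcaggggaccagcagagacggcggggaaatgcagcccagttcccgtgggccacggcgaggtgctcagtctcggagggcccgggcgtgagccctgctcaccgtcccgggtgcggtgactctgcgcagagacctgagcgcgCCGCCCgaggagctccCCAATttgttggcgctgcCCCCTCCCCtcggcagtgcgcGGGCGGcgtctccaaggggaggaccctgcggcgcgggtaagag

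The windows of Col4a1 and Col4a2 share 78 bases, chr8:11312777-11312854. The Col4a1 window held 1 GC box, 1 CCAAT box and 1 CTC box, and the Col4a2 window held 3, 1 and 1. Of all 32851 promoter windows of this length, 35.7% held a GC box, 37.4% a CCAAT box and 6.37% a CTC box. Among the 40 collagen and laminin genes with an entry, 25, 14 and 6 held them. The window of Col4a4, which shares its start region with Col4a3, held none of the 3.

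Across the 10 classes the log2 levels of Col4a1 and Col4a2 had a Pearson's r of 0.975, as a description over classes that share libraries. Col4a2 was the nearest of all 18633 genes compared to Col4a1, followed by Gm15419 (0.950) and Tnfaip8l1 (0.941), and Gm15419 overlaps Col4a2 on the other strand. Endothelial cells had 472 CPM of Col4a1 and 433 of Col4a2, and pericytes 255 and 163. Excitatory neurons were at 74.9 and 77.9 CPM, and this numerous class held 70.8% of all Col4a1 UMIs in the kept nuclei.

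The other 2 type IV pairs occupied different classes. Col4a3 and Col4a4, whose chains join that of Col4a5 in specialised basement membranes such as that of the kidney filter, had starts 72 bases apart on chromosome 1 and an r of 0.946. They were at 345 and 324 CPM in choroid plexus cells and 211 and 137 in pericytes, but at 11.3 and 7.15 in endothelial cells. Col4a5 and Col4a6, 1309 bases apart on chromosome X with an r of 0.906, were highest in fibroblasts, at 349 and 339 CPM. Ranked from Col4a1, Col4a3 and Col4a5, the partner was the nearest of all collagen and laminin genes. The chains of type VI collagen, Col6a1 and Col6a2, and of type I collagen, Col1a1 and Col1a2, had an r of 0.855 and 0.838. Ranked from Col6a1 and Col1a1, the partner was at 3 and 2. Ranks from the partner's side were not computed.

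The laminin alpha chains differed by class. Lama1, the alpha chain of the pial basement membrane, was at 752 CPM in fibroblasts, 39.3-fold over the next class, oligodendrocyte precursors, and fibroblasts held 76.2% of its UMIs. Lama2, the alpha chain of muscle and astrocytic basement membranes, was at 1584 CPM in pericytes, 1048 in fibroblasts, 988 in astrocytes and 382 in oligodendrocytes, and at 99.4 in endothelial cells and 15.2 in excitatory neurons. Lama3, an alpha chain best known from skin, was highest in astrocytes at 128 CPM, 4.06-fold over endothelial cells. Lama4 was at 317 CPM in pericytes, 239.7 in fibroblasts and 145 in endothelial cells, and Lama5, the other alpha chain of the endothelial basement membrane, at 121 in endothelial cells and 90.4 in choroid plexus cells. Among the partners, the gamma chain gene Lamc1 had UMIs in every class, from 54.7 CPM in microglia to 909 in pericytes, and the beta chain gene Lamb2 was at 51.2 in endothelial cells, 39.5 in pericytes and 0.122 in excitatory neurons. Of the UMIs of microglia, 10.1 to 52.4% were estimated as RNA of other cells, and their part in the Lamc1 level was not tested.

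Several fibrillar collagens of connective tissue were highest in fibroblasts. Named for their levels after these were seen, as were Col1a1 and Col2a1, Col1a2 was at 347 CPM in fibroblasts, 7.15-fold over pericytes, and Col3a1 at 67.1, 7.45-fold over pericytes, with 82.5% of its UMIs in fibroblasts. Col1a1 was at 63.8 CPM in fibroblasts and 17.3 in astrocytes, which held 33.0 and 44.2% of its UMIs. Col2a1, low throughout, was highest in oligodendrocytes at 7.51 CPM, with 58.4% of its UMIs. Other members of the fibrillar family also lay elsewhere. Col11a2 was highest in astrocytes (82.1 CPM), Col11a1 in oligodendrocyte precursors (81.0) and Col27a1 in microglia (192), against 5.83, 49.0 and 24.1 in fibroblasts. The microglia class also held macrophage markers, with Mrc1 at 309 and F13a1 at 318 CPM beside Csf1r at 482, and the part of either cell type in the level of Col27a1 was not tested.

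Collagens of other kinds were found in neurons, fibroblasts and choroid plexus cells. Col19a1, a fibril-associated collagen, was at 403 CPM in inhibitory neurons, 3.82-fold over excitatory neurons, and at most 45.1 in each other class. The membrane-anchored Col25a1 was at 1039.7 CPM in fibroblasts, 344 in inhibitory and 82.2 in excitatory neurons, and Col23a1, of the same kind, at 235 in fibroblasts. Within fibroblasts Col25a1 was high only in clusters 0 and 3, described below, whose name is less sure. In the other fibroblast clusters it was below both neuron classes. The network-forming Col8a1 was at 1373 CPM in choroid plexus cells, 7.68-fold over fibroblasts, and Col9a3, a fibril-associated chain of cartilage, at 689, 28.9-fold over astrocytes. The choroid plexus class held 123 nuclei with 0 to 27 per library and was not tested between groups. At the low end, and named for that, Col10a1 had 96 UMIs in all kept nuclei and was too low for a test in any class.

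Fibroblasts fell into 5 clusters that differed in these genes although none of them had been used to form the clusters. Clusters 0 and 3 reached the limits for naming with 3 of the 10 fibroblast markers, and clusters 6, 7 and 8 with 4 to 6. The name is therefore less sure for clusters 0 and 3. Cluster 7 (741 nuclei, led by Coch, Kl and Ndnf) had 1223 CPM of Lama1, cluster 8 (201 nuclei, led by Cemip, Dcn and Lum) 1691 and cluster 6 (269 nuclei) 794, against 6.68 in cluster 0 (480 nuclei, led by Slc47a1 and Slc26a7) and 20.5 in cluster 3 (82 nuclei, led by Dpp4). Col25a1 had the reverse order, with 2616 and 3213 CPM in clusters 0 and 3 and 44.3 to 74.5 in the other 3. Col4a5 was at 649 and 782 CPM in clusters 7 and 8 and at 3.90 in cluster 0, where Col8a1 reached 485. Col6a3, a chain of beaded filaments, was at 168 CPM in cluster 3 and 12.2 to 39.6 in the others.

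Neuron clusters also had collagens of their own. Several collagens stood among the 10 leading genes of a neuron cluster, namely Col24a1 of deep intratelencephalic neurons, Col5a1 of layer 6 corticothalamic neurons, Col8a1 of middle-layer neurons and Col14a1 of an interneuron cluster, cluster 19, which Adarb2 and Vip also led, and those of them not named otherwise were picked for this after the values were seen. Col19a1 was at 9.85 CPM in dentate granule neurons, 289 in upper-layer neurons, 593 in interneuron cluster 19 and 715 in the unnamed cluster 25, which Lhx6 and Nxph1 led. Col25a1 was at 313 CPM in dentate granule neurons, 752 in interneuron cluster 19 and 38.7 in layer 6 corticothalamic neurons. Col8a1 was at 65.3 CPM in middle-layer neurons against 5.88 in upper-layer neurons. Lamc1 was at 39.2 CPM in layer 6 corticothalamic and 143 in dentate granule neurons.

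With age, members changed in 5 of the 9 classes tested, which were those with at least 10 nuclei in every library. Of 231 pairs of a gene and a class that passed the filter on low counts, 14 were higher and 9 lower in aged than in young AAV-EGFP mice at an adjusted p under 0.05, over 18 different genes. In pericytes 4 of 17 members tested rose and 0 fell, where 9.88% of all genes were called and 4.31% rose. In astrocytes 2 rose and 3 fell of 29, where 11.7% of all genes were called, 4.64% higher and 7.10% lower. In oligodendrocytes 2 rose and 3 fell of 30, where 19.2% were called, 10.5% higher and 8.71% lower. In excitatory neurons 5 rose and 3 fell of 48, where 14.8% were called, 7.73% higher and 7.06% lower. In inhibitory neurons 1 rose of 35, where 3.86% were called and 2.22% rose. None was called of 7 in endothelial cells (0.731%), 35 in fibroblasts (1.17%), 20 in oligodendrocyte precursors (0.294%) and 10 in microglia, where 0 of 8616 genes passed and 1124 had an unadjusted p under 0.05. At an unadjusted p under 0.05 the members were 1 in endothelial cells (576 of all 4238 genes), 6 in fibroblasts (1695 of 9116), 5 in oligodendrocyte precursors (1853 of 10530) and 3 in microglia. In astrocytes, oligodendrocytes and excitatory neurons the share of members called was near that of all genes. The median log2 fold change of the members tested lay between -0.42 in microglia and 0.74 in endothelial cells, against at most 0.03 in size over all genes tested in a class. Each change is given as a log2 fold change ± its standard error with an adjusted p from edgeR's quasi-likelihood test (Benjamini-Hochberg over all genes of the class), and all p-values compare separate mice.

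**Figure D2:**
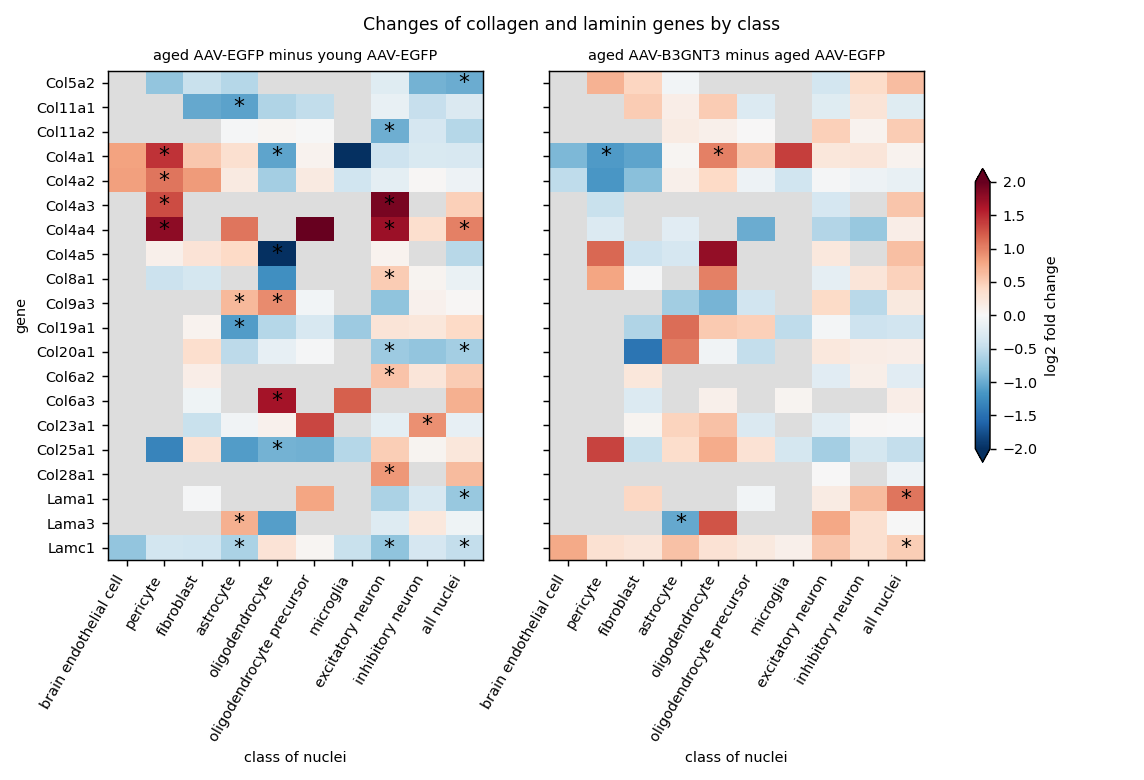
Log2 fold change of the 20 members called in any class or in all nuclei (rows) by class (columns), for ageing on the left and treatment on the right. Red is higher and blue lower in the first-named group, grey was not tested, and an asterisk marks an adjusted p under 0.05. Colours are saturated beyond 2 in either direction. Type IV collagen genes carry 4 asterisks in pericytes for ageing.

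In pericytes, the mural cells of capillaries, the genes of 2 type IV pairs, Col4a1 with Col4a2 and Col4a3 with Col4a4, rose with age. Col4a4 was at 80.4, 38.5 and 49.8 CPM in young AAV-EGFP, 166, 207 and 218 in aged AAV-EGFP and 181, 144 and 185 in aged AAV-B3GNT3. The 3 aged AAV-EGFP values were all above the young ones, and the log2 fold change was 1.79 ± 0.30, adjusted p = 0.000936. Its partner Col4a3 was at 142, 81.9 and 140.4 CPM in young AAV-EGFP, 227, 287 and 366 in aged AAV-EGFP and 262, 208 and 201 in aged AAV-B3GNT3, again with no overlap between young and aged (1.31 ± 0.26, adjusted p = 0.00262).

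Col4a1 and Col4a2 had a different spread. Col4a1 was at 189.7, 116 and 177 CPM in young AAV-EGFP, 136, 558 and 515 in aged AAV-EGFP and 244, 153 and 212 in aged AAV-B3GNT3. Aged AAV-EGFP replicates 2 and 3 were higher than each other library and replicate 1 was within the young range, with a log2 fold change of 1.44 ± 0.31, adjusted p = 0.00414. Col4a2 followed the same mice, at 93.3, 125 and 177 CPM in young AAV-EGFP, 90.7, 361 and 284 in aged AAV-EGFP and 99.2, 115 and 159 in aged AAV-B3GNT3 (1.07 ± 0.32, adjusted p = 0.0315). In treatment Col4a1 was lower with a log2 fold change of -1.13 ± 0.30, adjusted p = 0.0495, the 1 member of 17 called where 2.09% of all genes were, 1.38% lower. Col4a2 was at -1.16 ± 0.32, adjusted p = 0.0521, and Col4a3 and Col4a4 had adjusted p = 0.349 and 0.647.

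The high Col4a1 values sat in the mice that held pericyte cluster 2, a cluster led by Stc1 and Col4a3. It made up 85.7 and 86.8% of pericytes in aged AAV-EGFP replicates 2 and 3 and 0 to 5.61% in the other 7 libraries. Pooled over libraries, its nuclei had 541 CPM of Col4a1, 315 of Col4a2, 358 of Col4a3 and 208 of Col4a4, against 185, 126, 175 and 120.1 in cluster 1. Lama2 did not separate them, at 1576 and 1587 CPM. With aged AAV-EGFP replicates 2 and 3 left out the ageing changes were 1.47 for Col4a4 (adjusted p = 0.266), 0.85 for Col4a3 (0.446), -0.28 for Col4a1 (0.883) and -0.53 for Col4a2 (0.779), and the treatment change of Col4a1 was 0.59 (0.725). Within cluster 1 alone they were 1.68 for Col4a4 (adjusted p = 0.0735), 0.84 for Col4a3 (0.331), 0.64 for Col4a1 (0.56) and 0.53 for Col4a2 (0.697), and the treatment change of Col4a1 was -0.34 (0.848). Cluster 1 held 17 and 16 nuclei of aged AAV-EGFP replicates 2 and 3. The 8 endothelial markers together were at 243 to 277 CPM in young AAV-EGFP pericytes, 536 to 1331 in aged AAV-EGFP and 358 to 537 in aged AAV-B3GNT3. Of those UMIs 90.6% were Flt1, while Cldn5 had 6 UMIs in all pericytes. The 6 vascular smooth muscle markers together were at 295 to 430 CPM in young AAV-EGFP pericytes, 501 to 615 in aged AAV-EGFP and 460 to 730 in aged AAV-B3GNT3, and 1 of them, Myh11, was among the leading genes of cluster 1. Their part in these changes was not tested. After subtraction of the estimated RNA from other cells Col4a4 was still called (1.55, adjusted p = 0.0357), while Col4a3 (1.06, 0.0663), Col4a1 (1.29, 0.105) and Col4a2 (0.96, 0.213) were not. The treatment change of Col4a1 was -1.02 (adjusted p = 0.267) after this subtraction and -1.13 (adjusted p = 0.139) with finer clustering. With finer clustering Col4a2 was no longer called for ageing (1.04, adjusted p = 0.118), while Col4a4, Col4a3 and Col4a1 were.

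**Figure D3:**
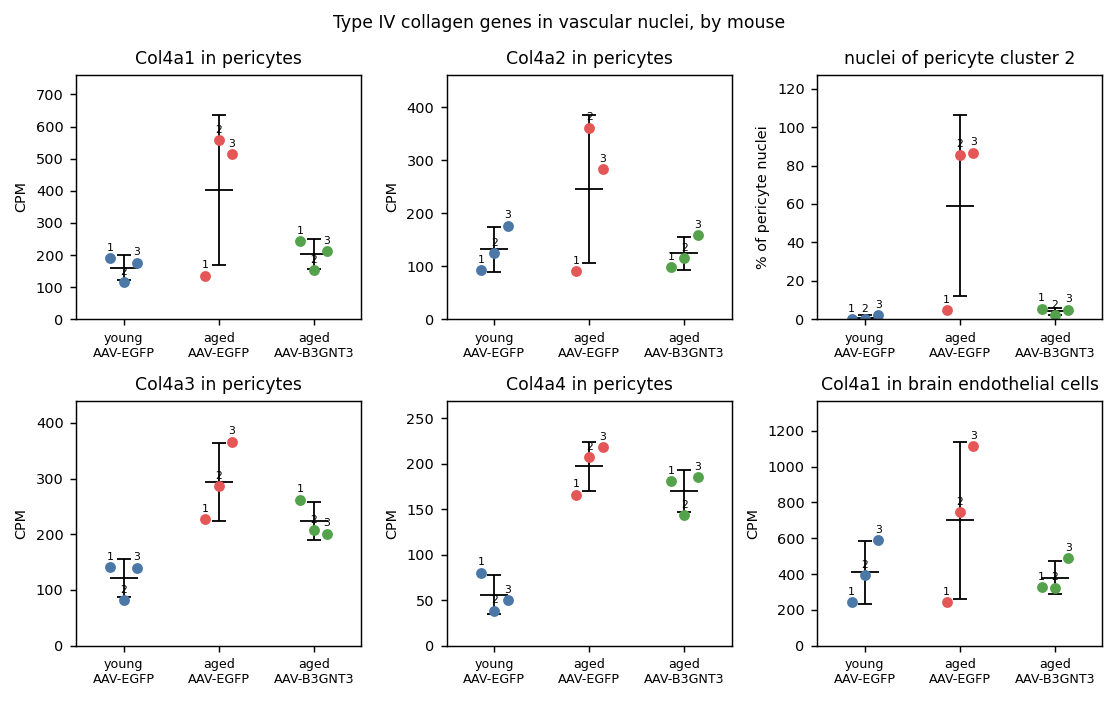
Type IV collagen genes in vascular nuclei and the share of pericyte cluster 2, by mouse. Points are mice numbered by replicate, with the mean and SD of 3 mice per group as lines, in CPM or in % of pericyte nuclei. In pericytes, aged AAV-EGFP mice 2 and 3 are highest for Col4a1 and Col4a2 and hold over 85% cluster 2 nuclei, while all 3 aged AAV-EGFP mice lie above the young ones for Col4a3 and Col4a4.

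The main laminins of pericytes were not called. Lama2 was at 1785, 1267 and 1571 CPM in young AAV-EGFP, 2161, 1476 and 1483 in aged AAV-EGFP and 1566, 1677 and 1463 in aged AAV-B3GNT3 (0.13 ± 0.20, adjusted p = 0.76). Lamc1 was at 1135, 978 and 792 CPM in young AAV-EGFP, 1088, 563 and 694 in aged AAV-EGFP and 839, 1172 and 779 in aged AAV-B3GNT3 (-0.37 ± 0.24, adjusted p = 0.366). Lama4 was at 373, 332 and 199 CPM in young AAV-EGFP, 695, 239 and 227 in aged AAV-EGFP and 411, 262 and 339 in aged AAV-B3GNT3, and the groups overlapped in these 3 genes.

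Endothelial cells, the cells that the viral promoter targets, had 41 to 114 nuclei per library, and none of the 7 members tested was called in either comparison (0.378% of all genes were in treatment). Col4a1 was at 243, 395 and 590.2 CPM in young AAV-EGFP, 241, 744 and 1116 in aged AAV-EGFP and 328, 325 and 487 in aged AAV-B3GNT3. Its change of 0.80 ± 0.45, adjusted p = 0.475 with age and -0.90 ± 0.46, adjusted p = 0.496 with treatment had wide errors, and aged AAV-EGFP replicates 2 and 3 were again the highest. Lama5 was at 127, 49.3 and 71.0 CPM in young AAV-EGFP, 98.3, 173 and 217 in aged AAV-EGFP and 164, 112 and 127 in aged AAV-B3GNT3, with 0.98 ± 0.39, adjusted p = 0.274. Lamb2 was at 47.9, 24.7 and 27.3 CPM in young AAV-EGFP, 53.6, 65.0 and 54.3 in aged AAV-EGFP and 85.6, 50.2 and 80.1 in aged AAV-B3GNT3, where each aged value was above each young value (0.74 ± 0.44, adjusted p = 0.488). Lama4 was at 236, 160.4 and 153 CPM in young AAV-EGFP, 438, 116 and 48.3 in aged AAV-EGFP and 57.1, 81.2 and 40.1 in aged AAV-B3GNT3, and the aged AAV-EGFP values alone spanned most of the whole range. Lamc1 was at 109, 136 and 229.5 CPM in young AAV-EGFP, 134, 43.3 and 96.5 in aged AAV-EGFP and 121, 166 and 167 in aged AAV-B3GNT3, with -0.79 ± 0.40, adjusted p = 0.426 for ageing.

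None of the 35 members tested in fibroblasts was called in either comparison. On simulated data for this class, 2% of changes of 0.5 in log2 and 36% of changes of 1 were called, so smaller changes can be missed. Lama1 was at 658, 665 and 732 CPM in young AAV-EGFP, 697, 694 and 629 in aged AAV-EGFP and 990.2, 729.7 and 959 in aged AAV-B3GNT3, and each aged AAV-B3GNT3 value was above each other aged value (treatment 0.41 ± 0.16, adjusted p = 0.298). Lama2 was at 1233, 892 and 1101 CPM in young AAV-EGFP, 1347, 966 and 1107 in aged AAV-EGFP and 981, 1046 and 932 in aged AAV-B3GNT3, with overlapping groups. Col25a1 was at 1614, 627 and 965 CPM in young AAV-EGFP, 2072, 1027 and 842 in aged AAV-EGFP and 1310.0, 869 and 674 in aged AAV-B3GNT3, where replicate 1 was the highest mouse of each group. Col4a2 was at 65.5, 44.0 and 72.2 CPM in young AAV-EGFP, 96.2, 122 and 105 in aged AAV-EGFP and 79.2, 57.4 and 45.1 in aged AAV-B3GNT3, with the 3 aged AAV-EGFP mice above all others (0.85 ± 0.26, adjusted p = 0.104 for ageing and -0.83 ± 0.26, adjusted p = 0.197 for treatment). The same held for Col4a1 in direction, at 0.53 ± 0.34, adjusted p = 0.431 and -1.05 ± 0.36, adjusted p = 0.23. The 6 vascular smooth muscle markers together were at 30.4 to 43.0 CPM in young AAV-EGFP fibroblasts, 50.1, 270 and 135 in aged AAV-EGFP and 50.8 to 62.3 in aged AAV-B3GNT3, and their part in these changes was not tested. Lamc1 was at 393, 432 and 367 CPM in young AAV-EGFP, 312, 316 and 281 in aged AAV-EGFP and 343, 357 and 369.5 in aged AAV-B3GNT3, with the aged AAV-EGFP mice the lowest (-0.40 ± 0.15, adjusted p = 0.196). In fits within single fibroblast clusters, added after the class results were seen, Col4a6 (named for this call) rose in cluster 7, where 9.39% of all genes were called. It was at 602, 516 and 621 CPM in young AAV-EGFP, 1031, 904 and 842 in aged AAV-EGFP and 740.4, 616 and 516 in aged AAV-B3GNT3 (0.66 ± 0.20, adjusted p = 0.0334).

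In astrocytes, whose endfeet rest on the vascular basement membrane, the laminin genes Lama3 and Lamc1 changed in opposite directions with age. Lama3 was at 151, 105 and 97.7 CPM in young AAV-EGFP, 186, 209 and 185 in aged AAV-EGFP and 114, 67.8 and 105 in aged AAV-B3GNT3. All 3 aged AAV-EGFP mice were higher than the other 6, and Lama3 rose with age (0.71 ± 0.20, adjusted p = 0.032) and was lower with treatment (-1.02 ± 0.20, adjusted p = 0.0164), the 1 of 29 members called where 4.67% of all genes were, 2.73% lower. Lamc1 was at 64.4, 59.6 and 65.0 CPM in young AAV-EGFP, 39.6, 35.6 and 46.2 in aged AAV-EGFP and 49.7, 74.7 and 58.8 in aged AAV-B3GNT3, and fell with age (-0.63 ± 0.17, adjusted p = 0.0291) without overlap. Lama2, the chain with most UMIs in this class, was at 892, 1016 and 1079 CPM in young AAV-EGFP, 1139, 1303 and 1059 in aged AAV-EGFP and 882, 853 and 935 in aged AAV-B3GNT3, and was not called (0.23 ± 0.14, adjusted p = 0.288).

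**Figure D4:**
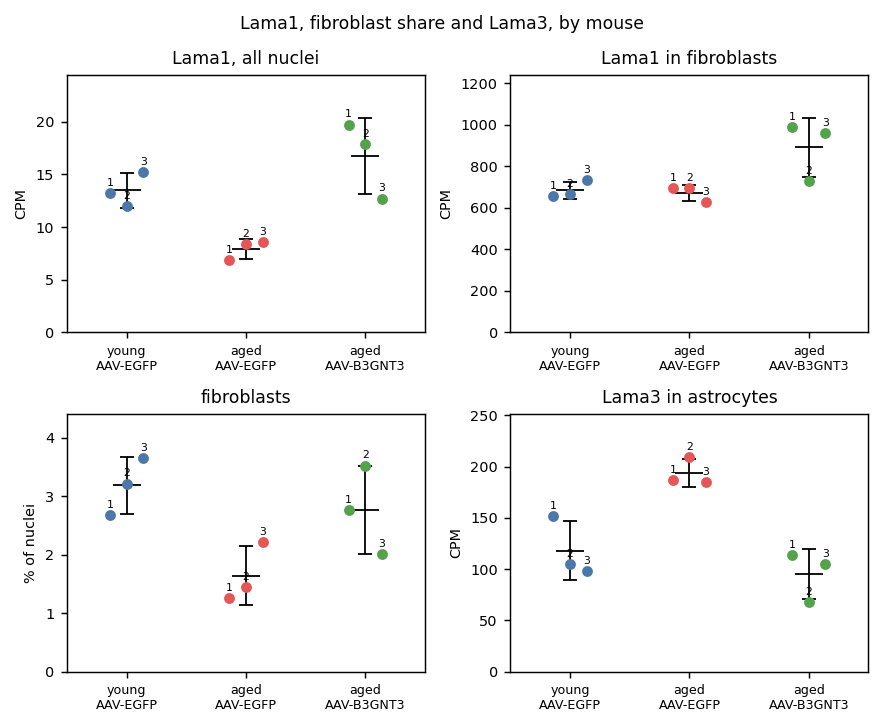
Lama1 in all nuclei and in fibroblasts, the share of fibroblasts among nuclei, and Lama3 in astrocytes, by mouse. Points are mice numbered by replicate and lines the mean and SD of 3 mice per group, in CPM or in % of nuclei. The 3 aged AAV-EGFP mice are lowest for Lama1 in all nuclei, at 6.85 to 8.58 CPM, and highest for Lama3 in astrocytes, at 185 to 209 CPM.

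Collagens of astrocytes also moved both ways. Col9a3 was at 26.0, 16.03 and 21.7 CPM in young AAV-EGFP, 32.4, 32.7 and 34.4 in aged AAV-EGFP and 22.6, 18.2 and 21.1 in aged AAV-B3GNT3, higher in each aged AAV-EGFP mouse (0.64 ± 0.20, adjusted p = 0.0467). Col11a1 was at 20.9, 19.04 and 16.2 CPM in young AAV-EGFP, 12.3, 7.81 and 7.14 in aged AAV-EGFP and 8.82, 6.23 and 15.7 in aged AAV-B3GNT3 and fell (-1.08 ± 0.32, adjusted p = 0.0408). Col19a1, which is far higher in neurons, was at 20.4, 14.8 and 21.7 CPM in young AAV-EGFP, 6.14, 14.2 and 5.88 in aged AAV-EGFP and 13.5, 21.9 and 21.5 in aged AAV-B3GNT3 and fell too (-1.11 ± 0.33, adjusted p = 0.0403). The share of UMIs from other cells in astrocytes was lower in aged AAV-EGFP mice, and the summed inhibitory neuron markers in astrocytes were at 143 to 198 CPM in young AAV-EGFP, 57.6 to 88.7 in aged AAV-EGFP and 95.5 to 178 in aged AAV-B3GNT3. Summed oligodendrocyte precursor markers in astrocytes were at 242 to 287, 127 to 152 and 196 to 246 CPM in these groups. The part of such RNA in the fall of Col19a1 was not tested. After subtraction of an estimate of this RNA, Lama3, Lamc1, Col9a3 and Col11a1 were no longer called, with log2 fold changes of 0.57, -0.47, 0.54 and -1.02 and adjusted p between 0.154 and 0.293, and the treatment change of Lama3 was -0.95 (adjusted p = 0.0685). Col19a1 had no value after the subtraction.

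In oligodendrocytes, the myelinating glia, low-level collagens were called. Col4a1 was at 8.29, 11.97 and 12.2 CPM in young AAV-EGFP, 6.35, 5.35 and 3.92 in aged AAV-EGFP and 9.34, 13.3 and 8.63 in aged AAV-B3GNT3. It fell in each aged AAV-EGFP mouse (-1.06 ± 0.28, adjusted p = 0.0228) and was higher with treatment (1.01 ± 0.27, adjusted p = 0.0481), the 1 of 30 members called where 6.36% of all genes were, 1.67% higher. Col25a1 was at 32.8, 42.1 and 39.2 CPM in young AAV-EGFP, 31.0, 16.8 and 12.3 in aged AAV-EGFP and 23.3, 40.2 and 35.4 in aged AAV-B3GNT3 and fell (-0.94 ± 0.30, adjusted p = 0.0442), and Col4a5, under 4 CPM in every mouse, fell as well (-2.04 ± 0.57, adjusted p = 0.0278). Col9a3 rose as in astrocytes, at 13.8, 7.76 and 6.53 CPM in young AAV-EGFP, 18.8, 20.7 and 16.2 in aged AAV-EGFP and 12.7, 9.16 and 7.45 in aged AAV-B3GNT3 (0.95 ± 0.28, adjusted p = 0.035). Col6a3 was at 5.29, 3.77 and 3.69 CPM in young AAV-EGFP, 5.08, 10.5 and 24.4 in aged AAV-EGFP and 19.5, 11.1 and 13.9 in aged AAV-B3GNT3, and its rise (1.66 ± 0.48, adjusted p = 0.0319) came from aged AAV-EGFP replicates 2 and 3, while replicate 1 lay within the young range. Summed excitatory neuron markers in oligodendrocytes were at 259 to 309 CPM in young AAV-EGFP, 114 to 208 in aged AAV-EGFP and 213 to 254 in aged AAV-B3GNT3, and both Col4a1 and Col25a1 are higher in neurons. Col4a5 was instead highest in fibroblasts, at 349 CPM, with 36.0% of its UMIs in astrocytes. After subtraction of the estimated RNA from other cells Col25a1 was still called (adjusted p = 0.0405), but so few counts were left in aged AAV-EGFP mice that the size of its change cannot be read. Col6a3 and Col9a3 (0.89) were no longer called (adjusted p = 0.0947 and 0.0963) although the change of Col6a3 kept most of its size, and Col4a1 and Col4a5 had no value, so that the part of such RNA in their falls was not tested. The major laminins of this class, Lama2 and Lamc1, were not called.

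Excitatory neurons had calls among laminins and collagens. Lamc1 was at 88.0, 104 and 99.6 CPM in young AAV-EGFP, 66.5, 52.8 and 47.8 in aged AAV-EGFP and 79.4, 95.7 and 71.1 in aged AAV-B3GNT3. All aged AAV-EGFP mice were below all other mice, and the log2 fold change with age was -0.81 ± 0.14, adjusted p = 0.00734. With treatment it was 0.56 ± 0.14, adjusted p = 0.0548. Summed oligodendrocyte markers in excitatory neurons were at 202 to 224 CPM in young AAV-EGFP, 110 to 154 in aged AAV-EGFP and 187 to 223 in aged AAV-B3GNT3, and oligodendrocytes held 173 CPM of Lamc1. After subtraction of the estimated RNA from other cells the change of Lamc1 with age was -0.84 (adjusted p = 0.00906). The subtracted profile summed all barcodes of a library, excitatory neurons included, so RNA of the class itself was subtracted too. The part of oligodendrocyte RNA in this change was not tested.

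The rare type IV pair rose from very low levels in the same class. Col4a4 was at 0.504, 0.707 and 0.765 CPM in young AAV-EGFP, 1.87, 2.27 and 2.32 in aged AAV-EGFP and 1.23, 1.03 and 2.03 in aged AAV-B3GNT3 (1.71 ± 0.31, adjusted p = 0.00804), and Col4a3 at 0.336, 0.260 and 0.382 CPM in young AAV-EGFP, 0.575, 1.29 and 1.74 in aged AAV-EGFP and 1.07, 0.714 and 1.11 in aged AAV-B3GNT3 (1.90 ± 0.42, adjusted p = 0.0155). No young mouse reached the level of an aged AAV-EGFP mouse in either gene. The common chain Col4a1 was at 77.2, 81.2 and 99.7 CPM in young AAV-EGFP, 53.9, 71.6 and 68.6 in aged AAV-EGFP and 77.5, 83.0 and 66.4 in aged AAV-B3GNT3, and was not called (-0.41 ± 0.13, adjusted p = 0.0593).

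Other collagens rose in excitatory neurons with age. Col8a1 was at 13.6, 11.2 and 12.7 CPM in young AAV-EGFP, 17.6, 18.0 and 17.5 in aged AAV-EGFP and 17.6, 14.5 and 14.8 in aged AAV-B3GNT3 (0.50 ± 0.12, adjusted p = 0.0211), Col6a2 at 7.94, 5.36 and 6.24 CPM in young and 8.97, 9.79 and 10.1 in aged AAV-EGFP (0.57 ± 0.16, adjusted p = 0.036), and Col28a1 at 1.18, 1.08 and 1.27 and 2.30, 2.15 and 1.97 (0.86 ± 0.21, adjusted p = 0.0212). Those that fell were Col20a1, at 11.0, 8.33 and 11.6 and 5.80, 6.66 and 6.23 CPM (-0.72 ± 0.18, adjusted p = 0.0233), and Col11a2, at 1.93, 1.64 and 2.42 and 1.15, 1.14 and 0.736 (-0.98 ± 0.26, adjusted p = 0.0306). After subtraction of the estimated RNA from other cells Col11a2, which is higher in glia, was no longer called (-1.34, adjusted p = 0.0666). Middle-layer neurons, where Col8a1 was high, had 209, 176 and 157 nuclei in young and 146, 439 and 377 in aged AAV-EGFP mice. The excitatory class had 2099, 2518 and 1847 nuclei in these young mice and 1868, 3307 and 2048 in these aged mice. The part of such shifts in make-up in the class changes was not tested. Col25a1 just missed the threshold in both comparisons, at 81.3, 69.3 and 74.4 CPM in young AAV-EGFP, 116, 113 and 87.7 in aged AAV-EGFP and 56.7, 88.3 and 51.6 in aged AAV-B3GNT3 (0.49 ± 0.18, adjusted p = 0.0799 for ageing and -0.69 ± 0.18, adjusted p = 0.0608 for treatment). None of the 48 members was called for treatment in this class (2.60% of all genes were), and 7 had an unadjusted p under 0.05, as 3890 of all 16754 genes did.

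Within single neuron clusters, fitted after the class results were seen, Lamc1 had a negative change with age in 13 of 13 clusters tested, from -1.36 to -0.28 with a median of -0.47. It was called lower in 4, namely layer 6 corticothalamic neurons (-1.36 ± 0.18, adjusted p = 0.00151), middle-layer neurons (-0.98 ± 0.15, adjusted p = 0.000484), deep intratelencephalic neurons (-0.75 ± 0.12, adjusted p = 0.00375) and upper-layer neurons (-0.69 ± 0.13, adjusted p = 0.00482). Of all genes, 10.4, 10.4, 8.67 and 12.1% were called in these clusters. In layer 6 corticothalamic neurons, where the change was largest, Lamc1 was at 52.9, 63.2 and 60.5 CPM in young AAV-EGFP, 31.5, 22.4 and 17.0 in aged AAV-EGFP and 37.6, 48.9 and 39.0 in aged AAV-B3GNT3, with no overlap between the 3 groups. Its treatment change was positive in all 13 clusters, from 0.13 to 0.87, and called higher in layer 6 corticothalamic neurons (0.87 ± 0.19, adjusted p = 0.0301), middle-layer neurons (0.63 ± 0.14, adjusted p = 0.0269) and the unnamed cluster 24 (0.62 ± 0.14, adjusted p = 0.0414), where 2.22, 2.41 and 1.21% of all genes were called. Clusters of 1 library share a mouse, and both comparisons share the aged AAV-EGFP mice.

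**Figure D5:**
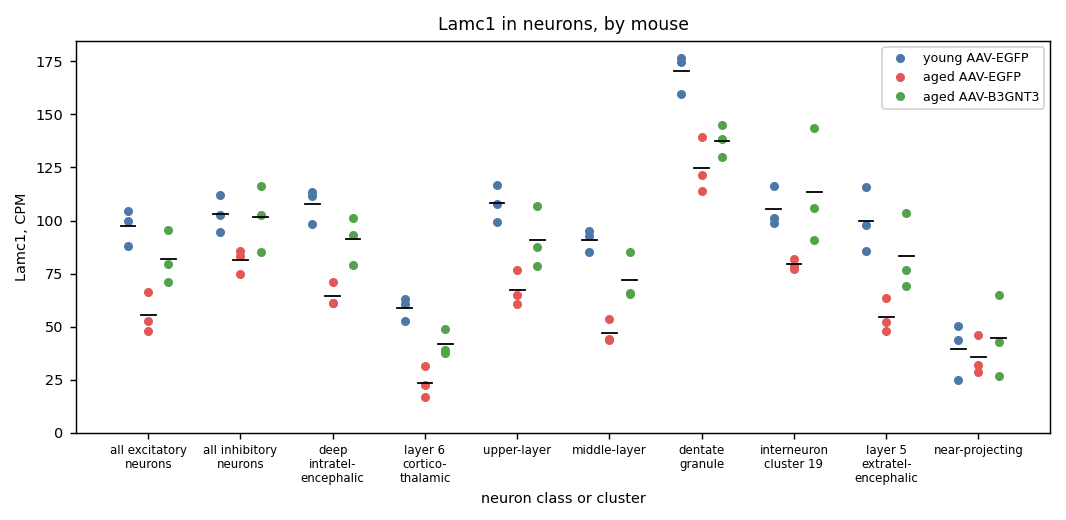
Level of Lamc1 in CPM by mouse (points, 3 per group, with the mean as a line) in all excitatory neurons, all inhibitory neurons and 8 neuron clusters, named by type except interneuron cluster 19. The excitatory class does not include the dentate granule neurons. In all 10 sets the aged AAV-EGFP mean is the lowest of the 3 groups. In layer 6 corticothalamic neurons the 3 groups do not overlap.

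Col25a1 had a pattern of the opposite sign in the same clusters. Its treatment change was negative in 12 of 13 and called lower in 4, in middle-layer neurons (-1.40 ± 0.26, adjusted p = 0.0125), deep intratelencephalic neurons (-0.82 ± 0.17, adjusted p = 0.0266, where 1.81% of all genes were called), layer 6 corticothalamic neurons (-0.80 ± 0.18, adjusted p = 0.034) and cluster 24 (-0.67 ± 0.15, adjusted p = 0.0372), the first of which had 125, 68.7 and 60.5 CPM in young AAV-EGFP, 93.1, 189 and 97.4 in aged AAV-EGFP and 57.5, 50.7 and 37.9 in aged AAV-B3GNT3. With age it was positive in 12 of 13 and called higher in cluster 24 (2.15% of all genes called), at 98.7, 105 and 111 CPM in young AAV-EGFP, 140.1, 178 and 208 in aged AAV-EGFP and 111, 105 and 111 in aged AAV-B3GNT3 (0.73 ± 0.15, adjusted p = 0.0194). Middle-layer neurons had 3 further rises with age. Lama4 was at 39.2, 21.8 and 21.7 CPM in young AAV-EGFP, 143, 61.9 and 61.5 in aged AAV-EGFP and 62.7, 54.1 and 69.5 in aged AAV-B3GNT3 (1.56 ± 0.28, adjusted p = 0.0022), Col8a1 rose from 42.8, 40.3 and 53.1 to 103, 62.8 and 69.4 CPM (0.74 ± 0.18, adjusted p = 0.0127) and Lama2 also rose. Other cluster calls for ageing included Col4a1 lower in layer 6 corticothalamic neurons (-0.55), Col15a1, named for this call after it was seen, lower in deep intratelencephalic neurons (-1.23), Col20a1 lower (-0.95) and Col6a2 higher (1.09) in upper-layer neurons, and Col4a4 higher in cluster 2 (1.95, where 2.95% of all genes were called).

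Inhibitory neurons had 1 member called. Col23a1 was at 6.94, 8.67 and 4.72 CPM in young AAV-EGFP, 15.8, 12.9 and 10.8 in aged AAV-EGFP and 11.6, 12.5 and 15.5 in aged AAV-B3GNT3, and rose without overlap between young and aged AAV-EGFP mice (0.91 ± 0.23, adjusted p = 0.0437). Under finer clustering its change was 0.33 with adjusted p = 0.553. The class then also took in 2767 nuclei led by Adamts19 and Cpa6, so the nuclei compared were not the same. In fits within neuron clusters 19, 25 and 30, the last led by Drd2, no member was called higher with age. Of all genes, 1.58, 3.81 and 3.61% were called there. The part of shifts in make-up in the class change was not tested. Col19a1, the member with most UMIs in this class, was at 444, 318 and 428 CPM in young AAV-EGFP, 421, 626 and 349 in aged AAV-EGFP and 329, 301 and 417 in aged AAV-B3GNT3, with no call and overlapping groups.

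In all nuclei together, where a lower share of cells of a type and less RNA per cell cannot be told apart, 1 of 55 members rose and 4 fell with age (12.9% of all genes were called, 7.43% higher and 5.50% lower). Lamc1 was at 106, 113 and 121 CPM in young AAV-EGFP, 79.6, 79.7 and 85.3 in aged AAV-EGFP and 111, 128 and 103 in aged AAV-B3GNT3, lowest in the aged AAV-EGFP mice, with -0.47 ± 0.10, adjusted p = 0.0169 for ageing and 0.49 ± 0.10, adjusted p = 0.0365 for treatment. Lama1 was at 13.2, 11.96 and 15.2 CPM in young AAV-EGFP, 6.85, 8.36 and 8.58 in aged AAV-EGFP and 19.7, 17.9 and 12.7 in aged AAV-B3GNT3, again lowest in aged AAV-EGFP (-0.76 ± 0.17, adjusted p = 0.0219 and 1.08 ± 0.17, adjusted p = 0.0257). These were the 2 members called with treatment, both higher, where 2.72% of all genes were called and 0.720% were higher. Fibroblasts, which hold most Lama1, were 3.18% ± 0.49 (SD, n = 3 mice) of nuclei for young AAV-EGFP mice, 1.64% ± 0.51 for aged AAV-EGFP mice and 2.76% ± 0.76 for aged AAV-B3GNT3 mice. Col5a2, highest in fibroblasts too, was at 10.8, 7.70 and 7.74 CPM in young AAV-EGFP, 5.85, 3.53 and 3.90 in aged AAV-EGFP and 7.90, 7.68 and 4.85 in aged AAV-B3GNT3 and fell with age (-0.99 ± 0.24, adjusted p = 0.0278). Col20a1 fell as in excitatory neurons (-0.68 ± 0.16, adjusted p = 0.0249), and Col4a4 rose, at 2.92, 1.54 and 1.90 CPM in young AAV-EGFP, 3.14, 4.73 and 4.86 in aged AAV-EGFP and 5.65, 3.72 and 4.62 in aged AAV-B3GNT3 (1.004 ± 0.27, adjusted p = 0.0345).

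For treatment 3 of 231 pairs of a gene and a class were called over the 9 classes, where 0 to 6.36% of all genes of a class were. They were Col4a1 lower in pericytes (2.09% of all genes called) and higher in oligodendrocytes (6.36%), and Lama3 lower in astrocytes (4.67%). None was called in fibroblasts (0.186% of all genes were), oligodendrocyte precursors (0.0475%), inhibitory neurons (0.534%) and microglia, where 0 of 8616 genes passed and 502 had an unadjusted p under 0.05. Members with an unadjusted p under 0.05 numbered 9 of 35 in fibroblasts (1162 of all 9116 genes), 1 of 20 in oligodendrocyte precursors (1173 of 10530), 4 of 35 in inhibitory neurons (2638 of 14414) and 0 of 10 in microglia.

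Whether a member's change differed between classes was tested within libraries with limma for excitatory against inhibitory neurons, astrocytes against oligodendrocytes and endothelial cells against pericytes. No member passed for either comparison. Among all genes, 0.786% passed between astrocytes and oligodendrocytes for ageing, 0.00845% for treatment, and 0 in the other pairs. A call in 1 class and not in another does not show a difference between them.

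The enzymes, receptors and proteases that act on collagens and laminins were taken from 4 lists set by function, with earlier results of these data known. Their calls come from the main fit alone and were not repeated after subtraction of free RNA, under finer clustering or with libraries left out. The estimated share of RNA from other cells in oligodendrocytes was 19.8 to 22.2% in young and 10.2 to 14.7% in aged AAV-EGFP mice. The part of such RNA in the falls below was not tested. Of 26 genes for collagen folding and processing, 1 rose and 5 fell among 18 tested in oligodendrocytes with age, 2 rose and 5 fell among 22 in excitatory neurons, 1 fell among 4 in pericytes and 1 rose among 18 in inhibitory neurons. None was called among 20 in astrocytes, 17 in fibroblasts, 16 in oligodendrocyte precursors, 10 in microglia and 6 in endothelial cells. The share of all genes called was 19.2% in oligodendrocytes (8.71% falling), 14.8% in excitatory neurons (7.06% falling), 9.88% in pericytes, 11.7% in astrocytes and 3.86% in inhibitory neurons, and the counts of each list are to be read against these shares. The median log2 fold change of the list was -0.51 in oligodendrocytes and -0.24 in excitatory neurons, against 0.03 and 0.02 over all genes tested. P4ha1, a prolyl 4-hydroxylase subunit that stabilises the triple helix, fell in 3 classes. In pericytes it was at 177, 217 and 254 CPM in young AAV-EGFP, 106, 47.8 and 100.3 in aged AAV-EGFP and 166, 208 and 111 in aged AAV-B3GNT3 (-1.40 ± 0.32, adjusted p = 0.00625), in oligodendrocytes the change was -1.57 ± 0.29, adjusted p = 0.00629 and in excitatory neurons -0.58 ± 0.12, adjusted p = 0.0128. Plod1, a lysyl hydroxylase, fell in oligodendrocytes (-0.73 ± 0.19, adjusted p = 0.0219) and excitatory neurons (-1.11 ± 0.33, adjusted p = 0.0437), and Adamts2, which cuts procollagen, fell in excitatory neurons (-0.85 ± 0.19, adjusted p = 0.017). Adamts3, a related procollagen protease, was at 20.1, 27.5 and 23.8 CPM in young AAV-EGFP, 10.4, 9.49 and 6.72 in aged AAV-EGFP and 13.9, 25.2 and 18.0 in aged AAV-B3GNT3 in oligodendrocytes, lower with age (-1.43 ± 0.25, adjusted p = 0.00614) and higher with treatment (1.12 ± 0.25, adjusted p = 0.027). For treatment it was the 1 gene called of 18 in this class, where 6.36% of all genes were, 1.67% higher. The only other treatment call over the 4 lists was Timp3 in pericytes, given below. Pcolce2, another gene of this list, rose in both neuron classes (0.70 ± 0.11, adjusted p = 0.0175 in inhibitory and 0.48 ± 0.13, adjusted p = 0.0296 in excitatory neurons).

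Of 16 receptor genes, the integrin chains that bind collagen moved in both directions with age. Receptors called were 1 higher of 5 in pericytes (Itgb1), 2 lower of 13 in astrocytes, 1 higher and 2 lower of 11 in oligodendrocytes, 2 higher and 1 lower of 14 in excitatory and 1 higher of 13 in inhibitory neurons. Of all genes, 3.86 to 19.2% were called in these classes. The median log2 fold change of the list lay between -0.37 in oligodendrocytes and 0.09 in pericytes over these 5 classes. Itgb1, the beta chain shared by these integrins, was at 283, 270 and 245 CPM in young AAV-EGFP, 302, 669 and 641 in aged AAV-EGFP and 383, 275 and 238 in aged AAV-B3GNT3 pericytes (1.09 ± 0.25, adjusted p = 0.00664), and its high values were those of aged AAV-EGFP replicates 2 and 3, the mice of cluster 2. Itga11 was at 10.8, 9.08 and 11.3 CPM in young AAV-EGFP, 14.3, 25.2 and 26.8 in aged AAV-EGFP and 22.8, 18.4 and 26.5 in aged AAV-B3GNT3 in excitatory neurons (1.10 ± 0.22, adjusted p = 0.0105), without overlap of young and aged AAV-EGFP mice, and rose in inhibitory neurons too (1.26 ± 0.20, adjusted p = 0.0175). Itga2 rose in excitatory neurons (1.07 ± 0.32, adjusted p = 0.0422). Itga10 fell in excitatory neurons (-0.87 ± 0.18, adjusted p = 0.0122) and astrocytes (-1.32 ± 0.40, adjusted p = 0.043), and Itga1 fell in astrocytes (-1.48 ± 0.30, adjusted p = 0.00652).

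Of 14 metalloproteinase and inhibitor genes, called were 1 higher of 4 in pericytes, 1 lower of 8 in astrocytes, 1 higher and 1 lower of 7 in oligodendrocytes, 1 of each of 9 in excitatory and 1 higher of 7 in inhibitory neurons, with medians from -0.02 in astrocytes to 0.72 in pericytes, where 3.86 to 19.2% of all genes were called. Timp3, a matrix-bound inhibitor of metalloproteinases, was at 38.6, 67.5 and 95.1 CPM in young AAV-EGFP, 90.7, 1742 and 1409 in aged AAV-EGFP and 315, 201 and 207 in aged AAV-B3GNT3 in pericytes. Aged AAV-EGFP replicates 2 and 3, the mice of cluster 2, were far above all others while replicate 1 was within the young range, with 4.14 ± 0.52, adjusted p = 0.000144 for ageing and -2.25 ± 0.44, adjusted p = 0.00924 for treatment. For treatment Timp3 was the 1 gene called of 4 in pericytes, where 2.09% of all genes were, 1.38% lower. Reck, a membrane-anchored inhibitor, rose in oligodendrocytes (0.79 ± 0.17, adjusted p = 0.0111) and both neuron classes, Timp2 fell in excitatory neurons (-0.86 ± 0.16, adjusted p = 0.00897) and Mmp16 fell in astrocytes (-0.68 ± 0.17, adjusted p = 0.0213) and oligodendrocytes (-1.17 ± 0.31, adjusted p = 0.0224). Of 13 basement membrane partners, 1 rose of 6 in pericytes, 1 fell of 6 in astrocytes and 1 fell of 8 in inhibitory neurons, with medians of 0.15, 0.03 and -0.42, and none was called for treatment. In all nuclei the 4 lists had 1 rise and 5 falls of 25 (folding), 2 and 2 of 15 (receptors), 0 and 1 of 11 (metalloproteinases) and 0 and 2 of 13 (partners) with age, where 7.43% of all genes were called higher and 5.50% lower.

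Of the 33 calls in classes and all nuclei, 5 held when each library in turn was left out, namely Col4a4 and Lamc1 in excitatory neurons and Col4a1, Col4a3 and Col4a4 in pericytes for ageing. With aged AAV-EGFP replicates 2 and 3 both left out, 3 of the 33 changed sign, Col4a1 and Col4a2 with age and Col4a1 with treatment, all in pericytes, and 30 kept their direction. None was called, in a design with 1 aged AAV-EGFP library. Some changes stayed near their size, as in Lamc1 (-0.64), Lama3 (0.68) and Col9a3 (0.64) of astrocytes and Col8a1 (0.49) of excitatory neurons, while Col6a3 (0.23) and Col25a1 (-0.29) of oligodendrocytes shrank.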

How the data were processed

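Nuclei of pooled cortex and hippocampus were sorted as Hoechst-positive singlets and sequenced with a 10x Genomics 3′ kit, 1 library per mouse. The authors deposited raw UMI counts per gene and nucleus from Cell Ranger on mm10 (version 4.0.0 per the labels, 7.2.0 per the file headers), with no correction for free RNA and no doublet removal. Nuclei passed with 200 to 5000 genes and a mitochondrial share up to 10%, and predicted doublets (0.8% per 1000 barcodes) were removed, 5.07 to 8.21% of nuclei per library. Clusters (Scanpy 1.11.5, Leiden resolution 0.3, 2000 variable genes, 15 principal components, 20 neighbours) were formed without collagen and laminin genes and named from markers. Counts were summed per library and class and tested with edgeR 4.0.16 (filterByExpr at 10 counts, TMM, all 9 libraries in 1 fit, two-sided, adjusted p under 0.05). Differences between classes within libraries were tested with limma 3.58.1. CPM per mouse are UMIs per 1000000 on TMM-scaled library totals. Genes named with values were those called in any class, the 3 with most UMIs in a class, and Col4a1, Col4a2, Lama2, Lama4, Lama5, Lamb2 and Lamc1; others are said to be chosen by their values. The values of 1 member are not reported here. The members and lists were chosen with earlier results of these data known. Alternatives were other normalizations, filters, DESeq2 1.42.0, clusterings, doublet handling, subtraction of free RNA and leaving out libraries. Free RNA, also called RNA from other cells above, was estimated per class and library from markers of other classes. The profile subtracted was that of all barcodes of the library, those of the class itself included. Gene coordinates are from GENCODE M21. The steps were tested on simulated data. Of simulated log2 changes of 1, 36% were called in fibroblasts, 34% in pericytes and 70% in excitatory neurons.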

Additional observations from a re-analysis of the deposited data

Results flagged for a closer look

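Lama2, the laminin chain that marks pericytes, fibroblasts, astrocytes and oligodendrocytes, changed with age in opposite directions in different neuron clusters, in fits added after the class results were seen. Its change was negative in 10 of the 12 neuron clusters tested, with a median of -0.72. It was higher in the unnamed neuron cluster 2, led by Pdzrn3 and Ntng1, with a log2 fold change of 1.09 and an edgeR adjusted p = 0.0211, and in middle-layer neurons, with 1.17 and 0.00316. In the middle-layer neurons the young AAV-EGFP mice had 26.7, 16.5 and 17.7 CPM and the aged AAV-EGFP mice 38.6, 60.7 and 38.7. It was lower in layer 6 corticothalamic neurons, with -1.87 and an adjusted p = 0.0117, in the unnamed cluster 24, with -2.20 and 0.0454, and in the unnamed cluster 30, led by Drd2 and Rarb, with -1.58 and 0.016. Of all genes, 2.95, 10.4, 10.4, 2.15 and 3.61% were called in these clusters, in the order given. In layer 6 corticothalamic neurons the young mice had 9.83, 8.65 and 5.84 CPM and the aged AAV-EGFP mice 1.48, 2.05 and 2.81. The difference between the clusters was not tested. Pooled over libraries Lama2 was at 988 CPM in astrocytes, 382 in oligodendrocytes and 1584 in pericytes, and the part of RNA from those cells in these changes was not tested.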

How the results depend on the processing

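No call changed sign in the planned settings, and 16 of the 33 calls held in each of them that gave a value, other than leaving out libraries. Subtraction of free RNA gave a value for 22 of the 33, of which 10 held and 12 did not. The calls in all nuclei and those of Col4a1 and Col4a5 in oligodendrocytes with age are among the 16 but had no value after it. Finer clustering gave a value for 26 and a fit of only the 2 groups for 32. The members called with age over the classes, 23, became 45 with no filter on low counts, 12 after subtraction of free RNA and 6 to 39 with 1 library left out. For all nuclei the 5 calls became 11 with DESeq2 and 0 to 10 with 1 library left out. For treatment the 3 calls over the classes became 19 with no filter, 8 with DESeq2, 1 with only the 2 groups compared, 8 with no doublet removal, 0 after subtraction of free RNA and 0 to 10 with 1 library left out, and the 2 in all nuclei became 7 with DESeq2 and 0 to 12. No member's change differed between 2 classes, with 0 to 1 for ageing when 1 library was left out. A setting chosen after seeing the data left out aged AAV-EGFP replicates 2 and 3, where the remaining library is assumed to vary like the other groups. With so few samples the lost calls say nothing of the size of a change, and 30 of the 33 kept their direction, among them Lamc1 (-0.51) and Lama1 (-0.98) in all nuclei with age and astrocyte Lama3 (-0.98) with treatment. It gave 0 calls with age over the classes and in all nuclei, 1 with treatment over the classes and 0 in all nuclei, and pericyte Col4a1 and Col4a2 became -0.28 and -0.53 with age and Col4a1 0.59 with treatment. Replicate numbers were not taken to pair the mice, since no label gives a shared litter or batch and in no class did every pair correlate above 0.1, with 2 to 7 of 9 libraries, by class, closest to their own number. The 7 were in endothelial cells, where young and aged AAV-EGFP pairs had correlations of 0.230, 0.147 and 0.297 but aged pairs -0.086, 0.119 and -0.020, and no member was called with or without the block. With a replicate block 29 of the 33 calls held, and those lost were Col25a1 in oligodendrocytes, Col11a2 in excitatory and Col23a1 in inhibitory neurons for ageing and Col4a1 in oligodendrocytes for treatment. Without aged AAV-EGFP replicate 2, aged AAV-EGFP replicate 3 or young AAV-EGFP replicate 3, 6, 9 and 9 of the 33 calls held. The cause of these shifts was not tested. Endothelial cells and pericytes had few nuclei, with 41 to 114 per library in the endothelial class.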

Other observations

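A small unnamed vascular cluster of 50 nuclei, led by Bmx, Eln and Lama3, was seen among the vascular nuclei. Over 93458 UMIs it held 471 CPM of Col18a1, 396 of Lama3, 396 of Col4a2, 332 of Col4a1, 321 of Lama5 and 299.6 of Col8a1, the members being named for these levels after they were seen. In endothelial cells these were 4.76, 31.6, 433, 472, 121 and 11.3 CPM in the same order. The type IV pair was similar and the others were lower, a difference that choosing members by their level in this cluster favours. It had 2 to 12 nuclei per library and was not compared between groups.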
